A study of Mus musculus with 4 samples.

Results

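Adam7, Crisp1, Crisp4, Lcn5, Lcn8, Lcn9, Rnase9, Rnase10, Gpx5 and Defb12 are genes that the mouse epididymis is known to express, and they were followed here in arrays of whole testis to see how much of their signal the testis RNA carried. They were chosen by name, as 10 of the genes by which epididymal tissue is recognized, and every probe set that the platform annotation pairs with one of these symbols was taken. Of the 10 genes, 8 had a probe set of their own, 1 (Defb12) shared its probe set with Defb35, and 1 (Crisp1) is paired with none in the annotation used here and is named only. These 8 are among 18821 genes with a value of their own, in a table of 35556 probe sets.

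The samples were testes of adult Azin2 KO and Azin2 WT males, measured on Mouse Gene 1.1 ST arrays of Affymetrix, of which 2 were KO and 2 WT. Each array carried a pool of RNA of 3 testes according to the labels, which the study describes as RNA from 3 mice, so that n counts pools. In the KO males the Azin2 locus holds a β-Geo cassette, which the WT males lack, and the strain was C57BL/6 on a mixed background. Neither group was treated. The values are log2 signals, and a level is given below as the log2 signal minus the median of every probe set of the same array, which lay between 6.08 and 6.11 in the 4 arrays. As an array signal contains background hybridization, and as probes differ in brightness, such a level places a probe set within its array and does not measure RNA per gene.

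The epididymis is the coiled duct in which spermatozoa mature after they leave the testis through the efferent ducts. Its epithelium secretes proteins that differ from segment to segment along the duct, many of them under the control of androgens, and several of these proteins bind to the sperm surface. Lipocalins, cysteine-rich secretory proteins, β-defensins, secreted members of the ribonuclease A family and a secreted glutathione peroxidase are among the best known. The duct lies against the testis and is removed from it at dissection, and the genes of its epithelium are therefore used to look for epididymal tissue in testis samples.

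Rnase9 and Rnase10 are adjacent genes on chromosome 14 that had the lowest and the highest place within the arrays of the 8 genes, and their promoter windows are shown for that reason. The windows reach from 250 bases before the start site to 50 after it, are taken from RefSeq (GRCm38.p6), and are printed 5′ to 3′ as RefSeq's gene direction gives them. Capitals mark the letters AGAACA or their reverse complement TGTTCT, the half-site of the element bound by the androgen receptor. The Rnase10 window lies at chr14:51007501-51007800 on the + strand and the Rnase9 window at chr14:51041818-51042117 on the - strand.
Rnase10: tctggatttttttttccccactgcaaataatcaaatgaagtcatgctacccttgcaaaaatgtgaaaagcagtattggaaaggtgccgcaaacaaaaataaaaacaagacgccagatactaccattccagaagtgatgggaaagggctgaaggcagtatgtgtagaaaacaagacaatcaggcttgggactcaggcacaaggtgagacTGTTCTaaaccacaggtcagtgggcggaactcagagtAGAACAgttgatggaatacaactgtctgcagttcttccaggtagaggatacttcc
Rnase9: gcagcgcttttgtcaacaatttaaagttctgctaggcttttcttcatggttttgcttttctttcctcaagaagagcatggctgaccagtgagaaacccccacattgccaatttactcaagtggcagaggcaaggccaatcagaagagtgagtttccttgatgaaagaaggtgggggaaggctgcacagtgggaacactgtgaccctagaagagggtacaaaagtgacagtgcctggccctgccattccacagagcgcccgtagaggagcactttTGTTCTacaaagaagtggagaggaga
In the Rnase10 window the 2 matches begin at positions -42 and -5 from the start site, and in the Rnase9 window the match begins at position 25. Rnase10 has another start site 178 bases further on, whose window contains the same 2 matches. Of the 8 listed genes with a window, 5 (Crisp1, Crisp4, Lcn9, Rnase9 and Rnase10) held the letters on either strand, and of all 32851 windows of the same length 19% did. The letters stood in the windows of both genes.

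The arrays were those of testis by their markers. All 8 spermatid, 7 spermatocyte, 8 Sertoli cell and 5 Leydig cell genes with a value lay above the array median in every array, with list medians of 5.74, 4.93, 3.64 and 4.60 above it on the log2 scale. The highest levels in these lists were those of the protamine gene Prm1 (6.27), the germ cell glycolysis gene Pgk2 (5.78), Clu (5.16) and the steroidogenic gene Cyp17a1 (6.06). The differences between KO and WT testes ran from -0.05 for Prm1 to 0.02 for Acrv1 in spermatid genes, from -0.02 for Pgk2 to 0.08 for Sycp3 in spermatocyte genes, from -0.0031 for Amhr2 to 0.15 for Fshr in Sertoli cell genes and from -0.14 for Hsd3b1 to -0.02 for Cyp17a1 in Leydig cell genes, and 0 passed an unadjusted p of 0.05 from limma. Azin2 was at 7.25 ± 0.16 (SD, n = 2 pools) in KO and 10.08 ± 0.11 in WT testes, a difference of -2.83 (adjusted p = 0.0250 from limma), with the KO pools below the WT pools as labelled. Over every probe set and by the methods' t-test the size cannot change, but the adjusted p was then 0.0707 and 0.868. With WT replicate 1 or WT replicate 2 removed, the difference was -2.75 or -2.91. The SD of the differences between arrays over the named probe sets ranged from 0.132 to 0.157. By this measure over all named probe sets no array stood apart, although the pools differed in some gene lists, as given below.

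Of the 8 epididymis genes, 7 lay below the array median in each of the 4 arrays, and Rnase10 lay above it in each. Their median level was -1.52 on the log2 scale. Among all genes with a value, 37.5% lay below the array median in every array and 59.6% above it, and the median level was 0.94. By array, the median of the 8 was -1.53 and -1.54 in the KO pools and -1.44 and -1.55 in the WT pools. WT replicate 1 was thus the highest and WT replicate 2 the lowest, with the KO pools between them.

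**Figure D1:**
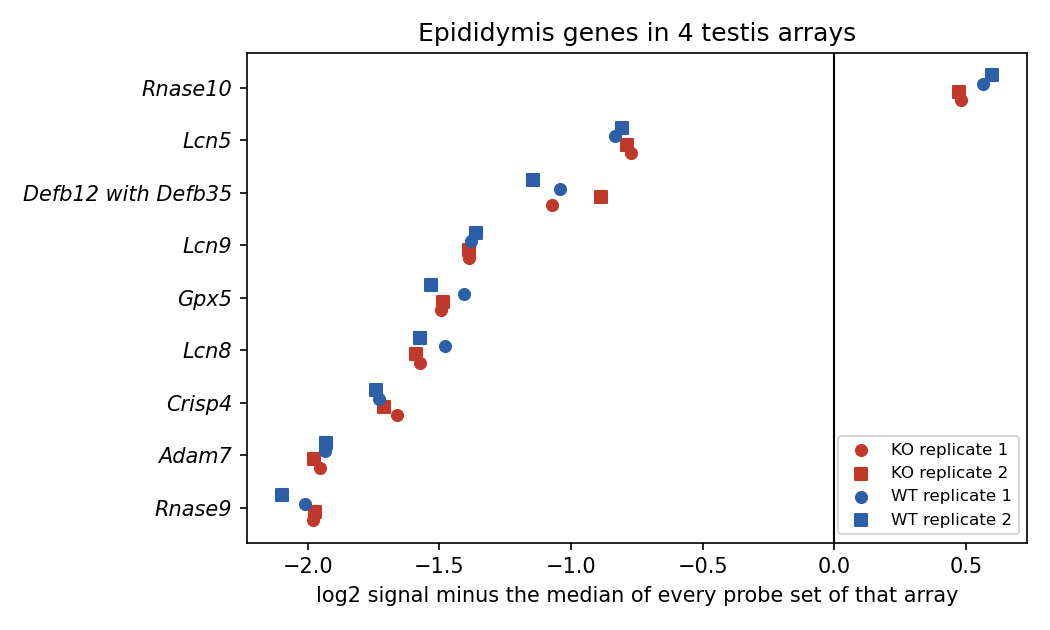
Log2 signal minus the median of every probe set of the same array (horizontal axis) for the 8 epididymis genes and for the probe set that Defb12 shares with Defb35. Each point is 1 array, red for KO and blue for WT. The 4 points of a gene lie close together, and Rnase10 alone lies to the right of the array median at 0.

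Among the lipocalins, small secreted carriers of hydrophobic molecules, Lcn5 encodes the epididymal retinoic acid-binding protein. Its log2 signal was 5.31 and 5.30 in the KO pools and 5.25 and 5.30 in the WT pools. The 4 values spanned 0.06 and stood between the percentiles of 36.7 and 37.5 of their arrays. Lcn8 was at 4.51 and 4.50 in KO and at 4.61 and 4.53 in WT testes, between the percentiles of 17.5 and 21.2. WT replicate 1 was the highest of its 4 arrays. Lcn9 had signals of 4.70 and 4.70 in KO and of 4.71 and 4.75 in WT testes, the narrowest span of the 8 genes at 0.05. The 3 lipocalins lie in a cluster on chromosome 2, and 3 further epididymal lipocalins of the same chromosome region, Lcn6, Lcn10 and Lcn12, had levels of -1.60, -1.25 and -0.26, also below the array median.

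Crisp4, a cysteine-rich secretory protein that sperm acquire in the epididymis, was at 4.42 and 4.38 in the KO pools and at 4.36 and 4.36 in the WT pools. It stood between the percentiles of 13.9 and 15.6. Adam7, a member of the ADAM family of membrane proteins that passes from the epididymal epithelium to sperm, had signals of 4.13 and 4.11 in KO and of 4.15 and 4.17 in WT testes. Its percentiles ran from 7.76 to 9.13, within the dimmest part of the arrays. Gpx5, the secreted glutathione peroxidase of the epididymis, was at 4.59 and 4.60 in KO and at 4.68 and 4.57 in WT testes. The WT pools of Gpx5 lay on either side of the KO pools.

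Rnase9 and Rnase10 encode secreted proteins of the ribonuclease A family. Rnase9 was at 4.10 and 4.12 in KO and at 4.08 and 4.01 in WT testes, between the percentiles of 5.43 and 7.84. Rnase10 was at 6.56 and 6.57 in KO and at 6.65 and 6.70 in WT testes. Its level ran from 0.47 to 0.60 and its percentile from 55.4 to 56.6. This holds against every probe set of the table, whose median is lowered by many dim rows without a gene name here. Against the median of the named probe sets, which lay between 7.08 and 7.11, Rnase10 was lower by 0.38 to 0.52 and 0 of the 8 genes lay above. The probe set that Defb12, a β-defensin, shares with Defb35 was at 5.01 and 5.20 in KO and at 5.05 and 4.96 in WT testes, and gives no value for Defb12 alone.

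To place these levels, genes of organs unrelated to the male tract (liver, pancreas, retina, heart, kidney, pituitary, mammary gland, thyroid and brain) were read in the same arrays. Of 19 with a value, 17 lay below the array median in every array, and the other two, Aqp2 and Tg, lay above it in every array. Their levels spanned -1.72 to 0.72 with a median of -1.27. Their differences between KO and WT testes ran from -0.15 for Aqp2 to 0.35 for Cyp7a1, a bile acid synthesis enzyme of the liver with a level of -1.34, which alone of the 19 passed an unadjusted p of 0.05 (0.0145, adjusted p = 0.9995 from limma). The levels of the 8 epididymis genes, from -2.02 to 0.53 with a median of -1.52, overlapped that span. Relatives of the 10 listed genes, from their protein families and expressed by the testis itself, stood apart from both. The high levels of these relatives follow in part from that choice, and whether the epididymis expresses them as well was not tested. All 10 of them lay at least 3.84 above the array median. Among them were Crisp2 of the sperm acrosome (5.92), Adam5 (6.10), the β-defensin Defb19 (5.12) and Ptgds, a lipocalin-type prostaglandin synthase (4.98). Ptgds varied most between the pools, with a span of 0.58 against a median span of 0.09 for the 10. Of 6 listed red blood cell genes only 2 had a value, Alas2 at 1.62 and Slc4a1 at -0.79, and the haemoglobin genes had none. The smooth muscle genes had a median of 1.70 and differences from -0.05 for Des to 0.15 for Cnn1. The highest of them, Actg2 at 5.21, lay within the range of the spermatid genes (4.79 to 6.27), and its cell source was not tested.

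**Figure D2:**
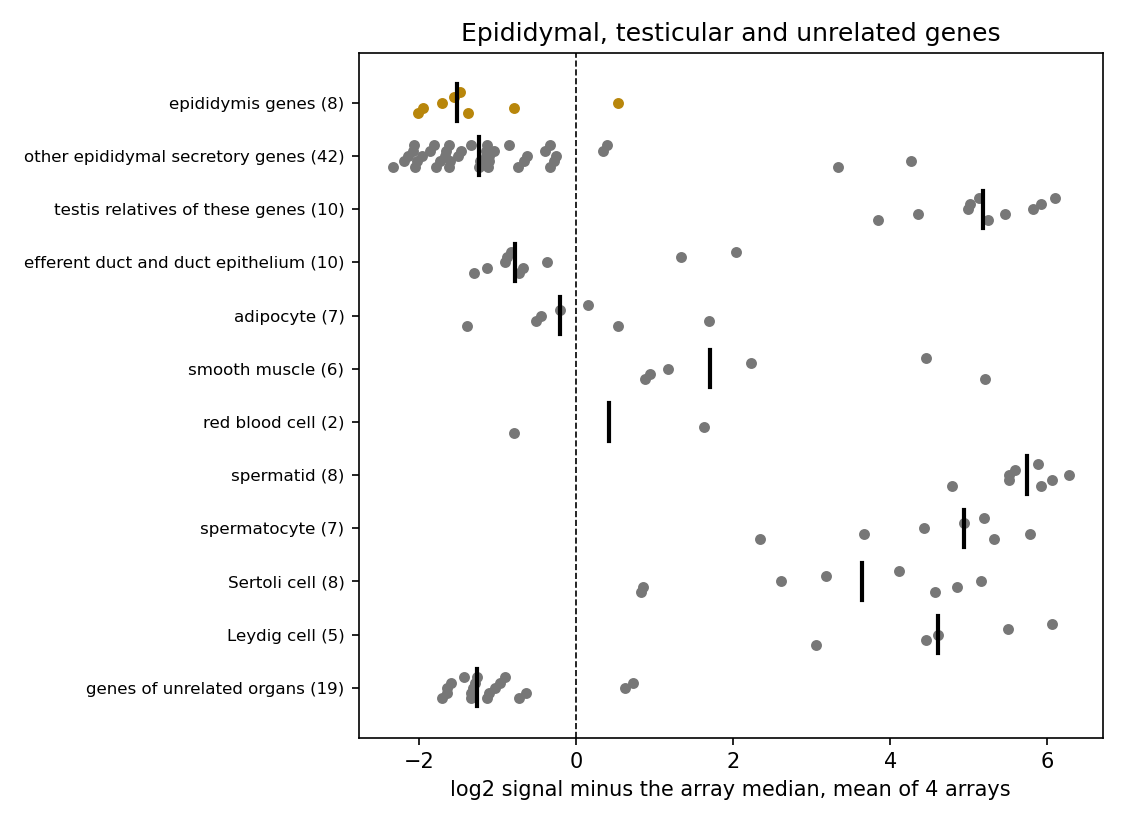
Log2 signal minus the array median, as the mean of 4 arrays (horizontal axis), for the genes of 12 lists, with the number of genes with a value in brackets. Each point is 1 gene and black bars are list medians. The epididymis genes have a median of -1.52 and the genes of unrelated organs of -1.27, while the testis genes of the same families have a median of 5.18.

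The genes that flank the 10 listed genes were read as well, by a rule set after their levels were seen: the nearest protein-coding gene on each side, in the RefSeq order of GRCm38.p6, that has a value and is on neither epididymal list. Of 16 distinct neighbours, 6 lay above the array median by their mean over the arrays. Of all genes with a value, 59.6% lay above it in every array. Trim27 and Gpx6, on the sides of Gpx5, had levels of 4.65 and 2.22, and Glt6d1, next to Lcn9, had a level of 2.95. On one side of Crisp1, which has no value here, lies Crisp3 with a level of -2.0, and on the other the nearest gene with a value was Crisp2. Gpx5 and Lcn9, below the array median, thus lie between genes above it, although Sohlh1, on the other side of Lcn9, was at only 0.16. Both neighbours of Adam7, Crisp4, Lcn5, Lcn8 and Defb12 lay below the array median. Crisp1, Rnase9 and Rnase10 were flanked by a gene above it and a gene below it.

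In the comparison of KO with WT testes, 0 of the 8 epididymis genes passed an adjusted p of 0.05 from limma (0 also passed an unadjusted p of 0.05, and 0 either p by the methods' t-test). Over all named probe sets, 0.00433% passed the adjusted p, which is the 1 probe set of Azin2, and 4.1% the unadjusted p. At a fold of 1.5 with an unadjusted p under 0.05, 0 of the 8 passed, against 0.0823% of all. In bulk tissue, a smaller number of epididymal cells and a lower amount of RNA in each could not have been told apart.

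Rnase10 had the largest difference of the 8, with 6.56 ± 0.00043 (SD, n = 2 pools) in KO and 6.68 ± 0.04 in WT testes. The difference was -0.11 on the log2 scale (95% confidence interval -0.24 to 0.02, unadjusted p = 0.0743 and adjusted p = 0.9995 from limma). Rnase9, its neighbour, differed in the other direction, by 0.07 (95% confidence interval -0.07 to 0.20). Lcn8 had a difference of -0.06, Adam7 of -0.04, Gpx5 and Lcn9 of -0.03, Lcn5 of 0.03 and Crisp4 of 0.04. The sign for Gpx5 turned without WT replicate 1, to 0.02. The intervals of all 8 lay between -0.24 and 0.20, inside a fold of 1.5 in either direction. For probe sets this dim the interval bounds the array signal and not the RNA, as background hybridization makes up an unknown part of the signal.

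**Figure D3:**
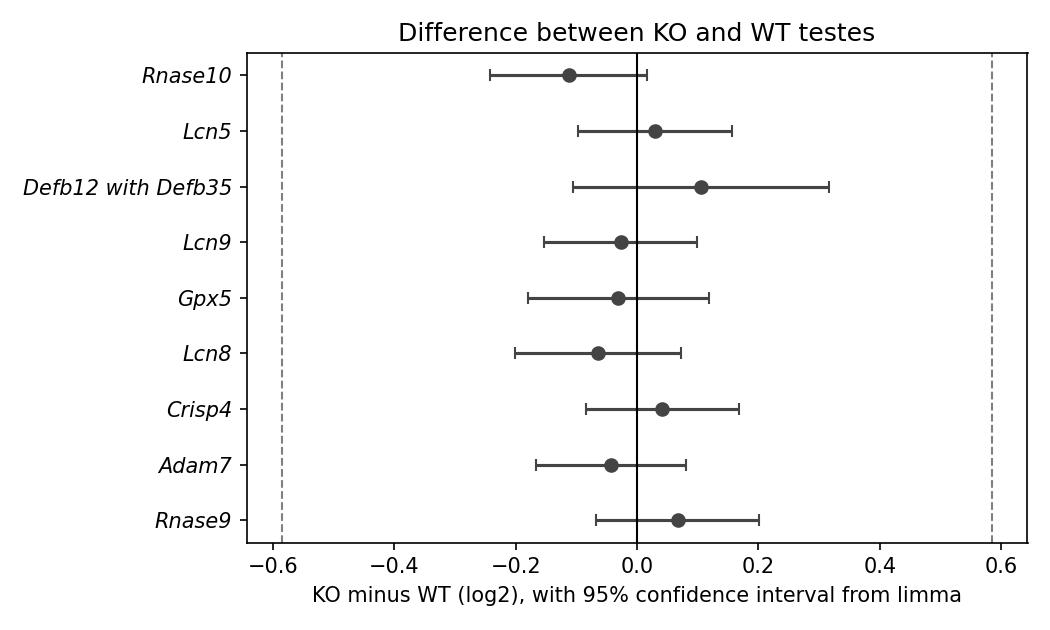
KO minus WT on the log2 scale (horizontal axis) for the 8 epididymis genes and for the probe set shared by Defb12 and Defb35. Points are differences of the means of 2 arrays per genotype, bars are 95% confidence intervals from limma and dashed lines mark a fold of 1.5. All 9 intervals include 0, and the shared probe set has the widest, from -0.11 to 0.32.

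Of the 8 differences, 5 were below 0 and 3 above, with a median of -0.03. For all genes the median was 0.01. The KO and WT pools did not overlap for 7 of the 8, with KO lower for Adam7, Lcn8, Lcn9 and Rnase10 and higher for Crisp4, Lcn5 and Rnase9. Over all named probe sets, 32.5% did not overlap, 12.3% with KO lower and 20.1% with KO higher. The 7 gaps ran in both directions, and the 4 values of a gene spanned at most 0.14, with a median span of 0.09, against a median of 0.14 for all genes. The highest of the 4 arrays was a KO pool for 3 of the 8 genes and a WT pool for 5. When each gene was set relative to its own mean over the arrays, the mean of the 8 was -0.01 in both KO pools and 0.01 and 0.0037 in the WT pools, a span of 0.02. The 8 genes were not high together in any single pool.

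Further genes that the epididymis is known to secrete were read from a list of 45, of which 42 had a value. Of these, 37 lay below the array median in every array and 4 above it in every array, with a median level of -1.24. Eppin, a protease inhibitor that coats sperm and is also made in Sertoli cells, had a level of 4.26, and Cst12, a cystatin, had a level of 3.34. The others, Defb21 and Defb30, had levels of 0.34 and 0.39. In KO against WT testes, 0 of the 42 passed an adjusted p of 0.05 from limma and 4 passed an unadjusted p of 0.05 (Eppin and Defb48 higher, Defb29 and Serpina1f lower in KO), at a background of 4.1%. The median difference of the 42 was 0.02, with 27 above and 15 below 0.

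Serpina1f, a serpin of the epididymis, had the lowest difference on that list, with 4.83 and 4.72 in the KO pools and 5.28 and 5.0 in the WT pools (-0.37, 95% confidence interval -0.64 to -0.09, adjusted p = 0.9995 from limma). Its level of -1.14 was that of a dim probe set. Spink8, a serine protease inhibitor gene, had the highest difference, 0.50 (95% confidence interval -0.89 to 1.90). It was at 5.16 and 6.85 in the KO pools and at 5.58 and 5.42 in the WT pools, so that KO replicate 2 alone was high and the groups overlapped. In that pool the mean of the 8 epididymis genes was -0.01 relative to their own means, and 12 of the 42 further genes had their highest value there, a share of 28.6% against 27.9% for all genes. Eppin was at 10.47 and 10.43 in KO and at 10.28 and 10.23 in WT testes, a difference of 0.19 (95% confidence interval 0.06 to 0.32, unadjusted p = 0.0139 from limma). Of 8 Sertoli cell genes, 7 had a difference above 0, with a median of 0.10 and 0 past an adjusted p of 0.05, and their part in the difference of Eppin was not tested.

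**Figure D4:**
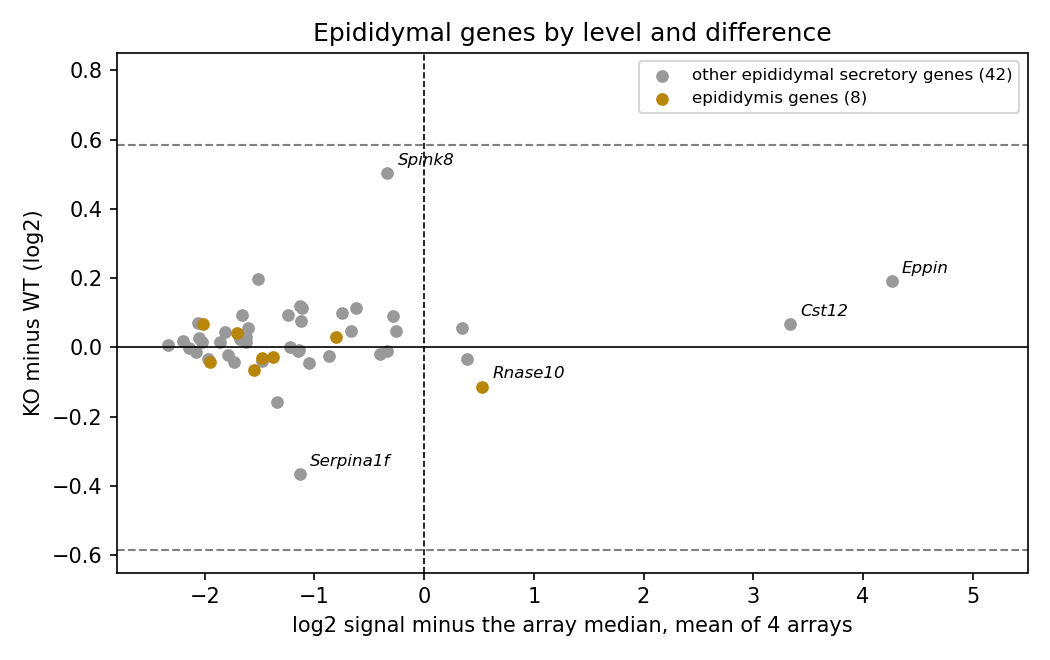
KO minus WT on the log2 scale (vertical axis) against the log2 signal minus the array median, as the mean of 4 arrays (horizontal axis). Each point is 1 gene, with the 8 epididymis genes in gold and 42 further epididymal genes in grey, and dashed horizontal lines mark a fold of 1.5. Eppin and Cst12 lie far to the right at levels of 4.26 and 3.34, and Spink8 at 0.50 and Serpina1f at -0.37 are the highest and lowest differences.

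Tissues that lie beside the testis were read in the same way. Of 10 genes of the efferent ducts and of duct epithelium, 8 lay below the array median in every array, among them the kidney and duct transcription factor genes Pax2 and Pax8. Epcam and Esr1, which had levels of 2.04 and 1.34, lay above it. In KO against WT testes these 10 had differences from -0.15 for Esr1 to 0.14 for the sodium-proton exchanger gene Slc9a3, and 0 passed an adjusted p of 0.05 from limma (1, Slc9a3, at an unadjusted p under 0.05).

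The 4 pools were not alike in duct genes, nor in genes of Leydig and Sertoli cells. Of the 10 duct genes, 8 had their highest value in KO replicate 2 (80%, against 27.9% of all genes), all but Epcam and Krt7, a keratin of simple epithelia. Aqp1, a water channel of the efferent ducts, was at 4.98 and 5.309 in the KO pools and at 5.306 and 5.15 in the WT pools. KO replicate 2 and WT replicate 1 were thus nearly level. Epcam, the highest of the 10 in level, was at 8.15 and 8.09 in KO and at 8.11 and 8.16 in WT testes. It was lowest in KO replicate 2. Relative to their own means, the 10 genes had means of -0.08 in KO replicate 1 and 0.08 in KO replicate 2, with the WT pools between them, a span of 0.16 against 0.02 for the 8 epididymis genes. Without Esr1, the most variable of the 10, the span was 0.12. By the same measure it was 0.26 for the 5 Leydig cell genes and 0.18 for the 8 Sertoli cell genes. It was 0.10 for smooth muscle, 0.08 for spermatocyte and 0.03 for spermatid genes. In the Leydig cell genes, too, KO replicate 1 had the lowest mean (-0.17) and KO replicate 2 the highest (0.10). WT replicate 1 was close to it (0.08) and had the highest value of 3 of the 5 genes. KO replicate 2 was also the pool in which Spink8 was high. There, 9 of 19 genes of unrelated organs (47.4%) and 4 of 6 smooth muscle genes had their highest value, whereas 1 of the 8 epididymis genes did. The mean of the smooth muscle genes was nevertheless highest in WT replicate 1 (0.03), with 0.02 in KO replicate 1 and 0.01 in KO replicate 2. The part of duct tissue in the value of Spink8 was not tested.

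Among 7 adipocyte genes, the mean relative to their own means ran from -0.30 in KO replicate 1 to 0.23 in WT replicate 1, a span of 0.53. Much of it came from Car3, a carbonic anhydrase abundant in fat and muscle, without which the span was 0.23. Car3 was at 6.42 and 7.90 in KO and at 8.75 and 8.05 in WT testes, a difference of -1.24 (95% confidence interval -2.58 to 0.10, adjusted p = 0.9995 from limma). Fabp4, the fatty acid-binding protein of adipocytes, was at 5.64 and 5.81 in KO and at 6.13 and 5.95 in WT testes, without overlap. Its difference of -0.31 (95% confidence interval -0.55 to -0.08) had an unadjusted p of 0.0194 and an adjusted p of 0.9995 from limma, the only adipocyte gene past an unadjusted p of 0.05. Plin1, a lipid droplet protein gene, had a difference of 0.04, and Adipoq, the gene of adiponectin, spanned 6.60 to 6.65 over the same arrays. Of the 7 genes, 3 (Car3, Fabp4 and Cidec, which differed by -0.18) had both KO pools below both WT pools and 0 the reverse. Over all named probe sets these shares were 12.3% and 20.1%. In all, 5 of the 7 differences were below 0 and 2 above.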

How the data were processed

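Pooled testis RNA of 2 KO and 2 WT samples was read on Mouse Gene 1.1 ST arrays (Affymetrix), although the labelling protocol in the labels names a 3′IVT kit. The authors deposited log2 signals from RMA, 1 per probe set, made with Partek 6.13.1224 per the submitters' processing notes. The paper names Affymetrix's instrument and analysis software. The genome build is not given in the sources used here. No array depth or detection call is given, and the number of arrays limits the precision.

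Of 35556 probe sets, 21219 had 1 gene symbol, 1880 several and 12457 are unnamed here. Symbols were updated through gene identifiers. The probe set with the highest mean gave a gene its value, and each of the 8 genes had 1. The difference between genotypes was fitted with R 4.3.3 and limma 3.58.1 (lmFit and eBayes, two-sided, no filter) over the 23099 named probe sets, with Benjamini-Hochberg adjustment, and the fit was tested on simulated data. The genes and lists were chosen with earlier results of these data known. The rule for names took the 10 genes, Azin2 and, of each other list, the genes with the largest difference in each direction, the highest level, or an unadjusted p under 0.05 together with a 1.5-fold difference. Other names were chosen after their values were seen. The span of a list without its most variable gene was added after seeing the data. The genes with the most similar pattern were to be named at a span of the mean of at least 0.3, which was not reached. Pools of one genotype were not stated to be separate experiments, so that p-values measure the spread between pools. Python 3.11.15 with matplotlib 3.10.9 drew the figures.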

Additional observations from a re-analysis of the deposited data

How the results depend on the processing

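In every alternative that could be computed, 0 of the 8 epididymis genes passed an adjusted p of 0.05 (smallest 0.920, without WT replicate 1) and 0 had an unadjusted p under 0.05, so that no fold threshold (1.5, or 1.2 as the alternative) was met. The filter on dim probe sets removed them all and gave no value. Their median difference of -0.03 ranged from -0.05 with quantile normalization to -0.0095 without WT replicate 1. Of 88 recomputed differences of single genes, 1 changed sign, that of Gpx5 without WT replicate 1, at 0.021. With each array left out, the difference of Gpx5 ranged from -0.083 to 0.021. Many of the 88 could not change. The intensity trend, the methods' t-test, every probe set and the replicate block leave the size of a difference as it is. So does the mean over the probe sets of a gene, as each of the 8 genes had 1. The count of genes above the array median was 1 against every probe set and 0 against the named probe sets, as the unnamed ones are dimmer. The difference of Azin2 was -2.83 with an adjusted p of 0.868 by the methods' t-test and -2.83 with an adjusted p of 0.0707 over every probe set of the table. With 1 array removed, where the remaining array of that genotype is assumed to vary like the other genotype, it ranged from -2.94 to -2.72. The adjusted p was then 0.294 (WT replicate 1 removed) and 0.232 (WT replicate 2 removed).

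Of the named probe sets, 19 met the threshold of fold and unadjusted p together. That count was 6 by the methods' t-test, 10 above the median level, 127 over every probe set and between 29 and 69 with an array left out, and the count past an adjusted p went from 1 to 0 by the methods' t-test and over every probe set and from 0 to 2 with an array left out. The cause was not tested. The deviations of the pools shared little by replicate number (correlation -0.08), which cannot show whether the samples were handled in pairs. With the replicate number as a block the median difference of the 8 genes stays at -0.03 by construction. In that fit 0 of them passed and the count of 19 was 24.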
